A study of Mus musculus with 48 samples.

Results

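The genes described here are the mouse translation initiation and elongation factors, taken as the protein-coding genes whose symbol begins with Eif or Eef followed by a digit. The mouse annotation holds 68 such genes, and 65 of them were among the 20007 genes of the deposited molecule table. The other 3, Eef1akmt4, Eif4ebp3 and Eif4e1b, were not analysed here. By role, 13 genes are grouped under start-codon recognition and the ternary complex, which carries the initiator tRNA. This group is broad. It also holds Eif5b, which joins the ribosomal subunits, and Eif2d, which is outside the eIF2 complex. Another 5 genes form the exchange factor eIF2B, 4 are kinases of eIF2 alpha and 14 belong to eIF3. The eIF4 cap-binding and helicase factors number 11, 3 genes bind eIF4E and 3 are eIF5A or eIF6 genes. Last come 7 genes named as elongation factors and 5 that modify elongation factors. Among the 7, Eef1e1 stands by its name and encodes the synthetase-complex protein p18.

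Initiation begins when eIF2, carrying GTP and the initiator tRNA, joins the small ribosomal subunit together with eIF1, eIF1A, eIF3 and eIF5, while the cap-binding eIF4E, the scaffold eIF4G and the helicase eIF4A bring the mRNA. The 4E-binding proteins hold eIF4E away from eIF4G, and the eIF2 kinases lower the supply of active eIF2 under stress by blocking its recycling by eIF2B. During elongation, eEF1A delivers aminoacyl-tRNA, the eEF1B subunits recharge eEF1A with GTP, and eEF2 moves the ribosome along the mRNA. In B cells, protein synthesis rises on activation, and a plasma cell spends much of it on antibody.

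The series measured splenic B lineage cells of 16 mice immunized into the peritoneum with SRBC, an antigen that starts germinal center (GC) reactions. Of these, 8 were c-RelTG mice, which carry a transgene for the NF-kB subunit c-Rel, and 8 were controls without it, and both genotypes carried 1 further allele, which is not reported here. From each mouse, naive B cells (IgD high, IgM low), GC B cells (B220+, IgD-, CD38 low, CD95 high, GL7+) and plasma cells (B220 low, CD138+) were enriched magnetically. They were then sorted into 1 library of 1000 cells each, giving 48 libraries in 6 groups of 8 mice. The libraries were made with bulk SCRB-seq, which tags 1 end of each mRNA with a unique molecular identifier (UMI), so that a count is a number of molecules and needs no division by gene length. The labels used here give no age or sex, and the promoter of the transgene is not given in the sources used here.

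Library totals ran from 97993 to 159857 UMIs in naive B cells, from 401207 to 695137 in GC B cells and from 481229 to 794273 in plasma cells, where immunoglobulin transcripts took 50.3% ± 2.06 (SD, n = 8) of UMIs in controls and 49.7% ± 1.73 (n = 8) in transgenic mice. Rel, the gene of c-Rel, lay between 6.62 and 56.5 CPM, counts scaled to a common library total, in control naive B cells and between 0 and 51.1 CPM in transgenic ones. In GC B cells it lay between 6.68 and 19.2 CPM in controls and between 13.8 and 33.9 CPM in transgenic mice, a log2 fold change of 1.08 (SE 0.22, edgeR adjusted p = 0.00105). In plasma cells it had 1 UMI over the 8 control libraries and 18 over the 8 transgenic ones. Each population carried the highest summed level of its own marker list. Summed naive B cell markers in GC B cells ran from 452 to 741 CPM in controls and from 227 to 640 CPM in transgenic mice, and in plasma cells from 140 to 314 CPM in controls and from 66.2 to 121 CPM in transgenic mice. Summed GC B cell markers in plasma cells ran from 80.8 to 129 CPM in controls and from 89.9 to 261 CPM in transgenic mice. Summed plasma cell markers ran from 95027 to 148322 CPM in control and from 62926 to 108597 CPM in transgenic plasma cells, from 1054 to 1440 and from 1156 to 2381 CPM in GC B cells, and from 437 to 1983 and from 1045 to 4197 CPM in naive B cells. The part of these markers' cells in the genotype differences was not tested. In bulk samples, fewer cells of a type and less RNA per cell cannot be told apart.

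The 65 genes together gave 1852 UMIs per library in control naive B cells, 9226 in control GC B cells and 4086 in control plasma cells, so that naive B cells are the least precisely measured. With immunoglobulin UMIs left out of the total, the genes took 1.74% ± 0.0539 (SD, n = 8) of molecules in control naive B cells, 2.06% ± 0.0401 in control GC B cells and 1.40% ± 0.0391 in control plasma cells. The share in transgenic mice was 1.81% ± 0.0606 in naive B cells, 2.22% ± 0.0902 in GC B cells and 1.45% ± 0.050 in plasma cells (n = 8 each). A few elongation factors supplied much of it. Averaged over both genotypes, Eef2 (the translocase eEF2) was highest in each population, with 2326 CPM in naive B cells, 2313 CPM in GC B cells and 1803 CPM in plasma cells. Eef1a1, which encodes the tRNA carrier eEF1A1, followed with 1987, 1751 and 1459 CPM in that order of populations, and Eef1b2, an eEF1B exchange subunit, with 1547, 1683 and 1227 CPM. Eef1g, the eEF1B gamma subunit, came next in each population, with 863, 765 and 677 CPM. After these came the eIF3 subunit gene Eif3h in naive B cells (535 CPM) and in GC B cells (713 CPM), but Eif5, which encodes the GTPase-activating protein of eIF2, in plasma cells (551 CPM). These CPM are scaled by TMM factors over all 48 libraries, and the levels by group are drawn in the heat map.

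**Figure D1:**
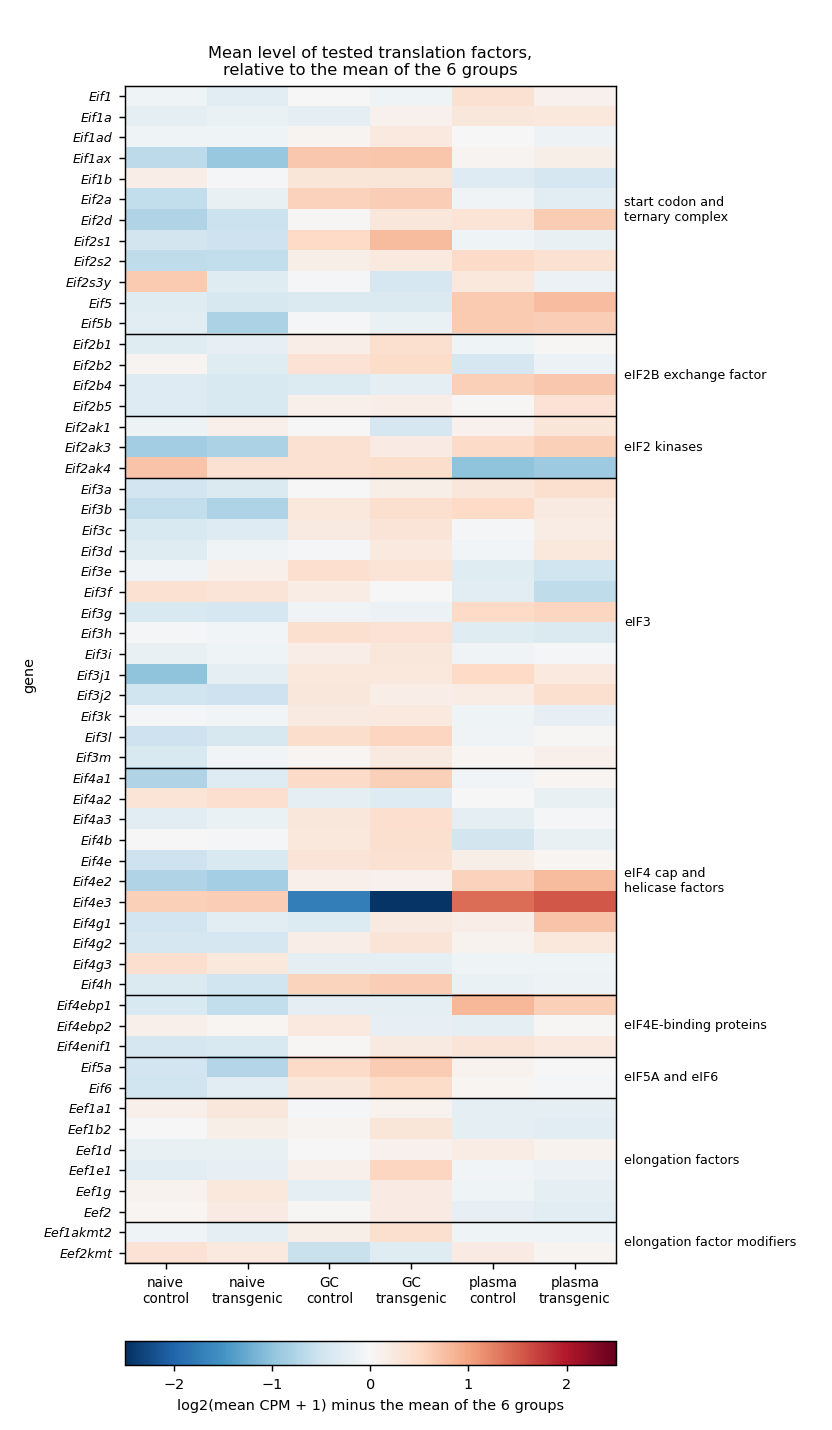
Heat map of the 57 genes tested in at least 1 comparison (rows, ordered by role) in the 6 groups of population and genotype (columns). Colour is log2(mean CPM + 1) of 8 mice minus the mean of the 6 groups, and Eif4e3 stands out with 3.63 and 1.81 CPM in GC B cells against 39.0 and 43.7 CPM in plasma cells.

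The first comparison asked how the c-Rel transgene changed these genes in each population, with the 8 transgenic against the 8 control libraries in edgeR's quasi-likelihood test. In GC B cells, 7 of the 55 tested genes (12.7%) were higher in transgenic mice and 0 were lower at an adjusted p under 0.05, though 3 alternative fits added 1 lower gene, Eif2ak1. Over all 6393 genes tested there, 7.68% were called, 3.58% as higher and 4.1% as lower. The median log2 fold change of the 55 genes was 0.08, beside 0.00 over all genes. The elongation factor role stood for 4 of the 7 calls, of 6 tested, with a median log2 fold change of 0.19. Of these 4, Eef1e1 stands in the role by its name and encodes a protein of the synthetase complex. The 3 calls outside this role were the scaffold gene Eif4g1, the eIF3 subunit gene Eif3d and Eif2s1. Eif2s1 encodes eIF2 alpha, the subunit that the eIF2 kinases phosphorylate.

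Eef1g (chr19:8967041-8978479, plus strand, GRCm38) had the smallest p. Its level was 598 CPM in the lowest, 647 in the median and 696 in the highest control mouse, and 670, 900 and 973 CPM in transgenic mice. The groups overlapped at their edges, and all 8 transgenic mice lay above the control median. The means were 653 ± 34.8 and 877 ± 106 CPM (SD, n = 8 each), a 1.33-fold difference (log2 0.41, SE 0.06, edgeR adjusted p = 8.18e-06). Eef2 (chr10:81176631-81182498, plus strand) ran from 2040 over 2188 to 2292 CPM in controls and from 2323 over 2470 to 2576 CPM in transgenic mice. It was the 1 called gene of the 7 whose groups did not overlap in GC B cells, at a small log2 fold change of 0.16 (SE 0.04, edgeR adjusted p = 0.0133). The 7 were picked by p in these same libraries, and overlap over all genes was not counted. With all 48 libraries in 1 fit the adjusted p of Eef2 was 0.0527, above the threshold. Eef1b2 stood at 1549 ± 67.0 CPM in controls and 1816 ± 98.1 CPM in transgenic mice (log2 0.21, SE 0.05, edgeR adjusted p = 0.00212). Eef1e1, which encodes the synthetase-complex protein p18, stood at 55.8 ± 7.09 against 74.6 ± 8.89 CPM (log2 0.40, SE 0.12, edgeR adjusted p = 0.0229). Its adjusted p was 0.0764 with libraries thinned to equal depth. Eef1a1 did not pass, with a log2 fold change of 0.12 (edgeR adjusted p = 0.110).

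The 7 genes of the elongation factor role, Eef1e1 included, were also taken as 1 quantity. They made up 0.881% ± 0.0189 (SD, n = 8, range 0.844 to 0.900%) of non-immunoglobulin UMIs in control GC B cells and 1.003% ± 0.0447 (range 0.928 to 1.08%) in transgenic ones. The ranges did not overlap in GC B cells. In naive B cells they did, at 0.888% ± 0.0508 (0.842 to 0.983%) in controls and 0.976% ± 0.0450 (0.900 to 1.04%) in transgenic mice. Plasma cell ranges overlapped as well, at 0.575% ± 0.0399 (0.496 to 0.613%) and 0.573% ± 0.0261 (0.522 to 0.606%). The sum holds Eef1g, Eef1b2, Eef2 and Eef1e1, which were called above in the same GC B cell libraries. Its lack of overlap in GC B cells is therefore no separate evidence. The median log2 fold change of the role was 0.14 in naive B cells (5 tested), beside 0.19 in GC B cells. For the difference between these effects, 0 members were called.

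Among the initiation factors, Eif4g1 (chr16:20668313-20692884, plus strand) ran from 28.9 over 47.7 to 54.7 CPM in control GC B cells and from 47.0 over 68.8 to 78.8 CPM in transgenic ones. The groups overlapped, and 7 of the 8 transgenic mice lay above the control median. The means were 44.3 ± 10.5 and 65.6 ± 10.6 CPM (log2 0.54, SE 0.13, edgeR adjusted p = 0.00668). Eif3d, an eIF3 subunit that can itself bind the cap, stood at 250 ± 13.5 against 302 ± 28.8 CPM (log2 0.26, SE 0.07, edgeR adjusted p = 0.00899). Eif2s1 stood at 184 ± 18.6 against 223 ± 35.4 CPM (log2 0.26, SE 0.08, edgeR adjusted p = 0.0330), and it missed the threshold in 3 other fits, with adjusted p of 0.0748 in DESeq2, 0.0523 with all 48 libraries in 1 fit and 0.152 with thinned libraries. None of the 4 tested eIF2B genes, the 3 tested eIF2 kinase genes or the 3 genes of eIF4E-binding proteins passed. Eif2ak1, the heme-regulated eIF2 kinase, came nearest among those with a negative sign, at a log2 fold change of -0.40 (edgeR adjusted p = 0.0510). It was called lower in 3 of the 9 other fits, with an adjusted p of 0.0443 with library totals alone, 0.0469 with mouse numbers 1 to 8 or 9 to 16 as a covariate and 0.0465 with Y-linked expression as a covariate. The counted end of Eif2ak1 overlaps Aimp2 on the opposite strand.

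Promoter sequences of these genes were read for the E-box CACGTG, a motif that Myc-family factors bind. Within the 250 bases before the start, RefSeq promoter windows on GRCm38.p6 held this palindrome, read alike on both strands, in 11 of the 51 members with a window (21.6%) and in 1854 of 27025 genes in all (6.86%). Among genes tested in GC B cells it stood in 509 of 4787 windows (10.6%). Of the 7 called members, 6 had a window and 2 of them held the motif (33.3%), as did 25 of the 167 windows of all genes called higher in transgenic GC B cells (15%). Both windows are printed 5′ to 3′ on the plus strand with the E-box in capitals, first Eif4g1 at chr16:20672477-20672726 and then Eef2 at chr10:81176381-81176630.
Eif4g1: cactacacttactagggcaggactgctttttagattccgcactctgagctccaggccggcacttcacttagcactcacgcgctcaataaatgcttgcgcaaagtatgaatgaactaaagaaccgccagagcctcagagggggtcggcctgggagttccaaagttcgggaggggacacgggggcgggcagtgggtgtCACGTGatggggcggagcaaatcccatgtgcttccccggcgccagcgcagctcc
Eef2: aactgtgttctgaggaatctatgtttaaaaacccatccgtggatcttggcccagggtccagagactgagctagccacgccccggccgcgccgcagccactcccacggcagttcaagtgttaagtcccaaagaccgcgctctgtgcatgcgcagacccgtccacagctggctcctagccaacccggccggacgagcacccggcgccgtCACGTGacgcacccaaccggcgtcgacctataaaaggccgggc
The RefSeq start of Eif4g1 lies inside the GENCODE bounds given above and is thus an internal one, while that of Eef2 is the first base of the gene. The motif began 54 bases before that start in Eif4g1, which had 1 more in the 50 bases after it, and 43 bases before the start in Eef2. A match of letters is a description of the sequence and not a site of binding. The other 4 called members with a window did not hold these letters there. A part of Myc-family factors in the genotype differences was not tested.

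In naive B cells, 0 of the 28 tested genes passed in edgeR, where 1.13% of all 2131 genes tested did. At an unadjusted p under 0.05, edgeR counted 5, beside 242 of all 2131 genes. DESeq2 counted 3, beside 164 of all genes, and called 0. The 5 in edgeR were Eef2 (log2 0.14), Eef1a1 (0.14), Eef1b2 (0.13), Eif3m (0.27) and, with a negative sign, Eif5a (-0.26). These genes had 1852 and 2153 UMIs per library in control and transgenic naive B cells, and detection at that depth was not tested. The estimates by role are drawn for all populations in the plot of genotype effects.

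**Figure D2:**
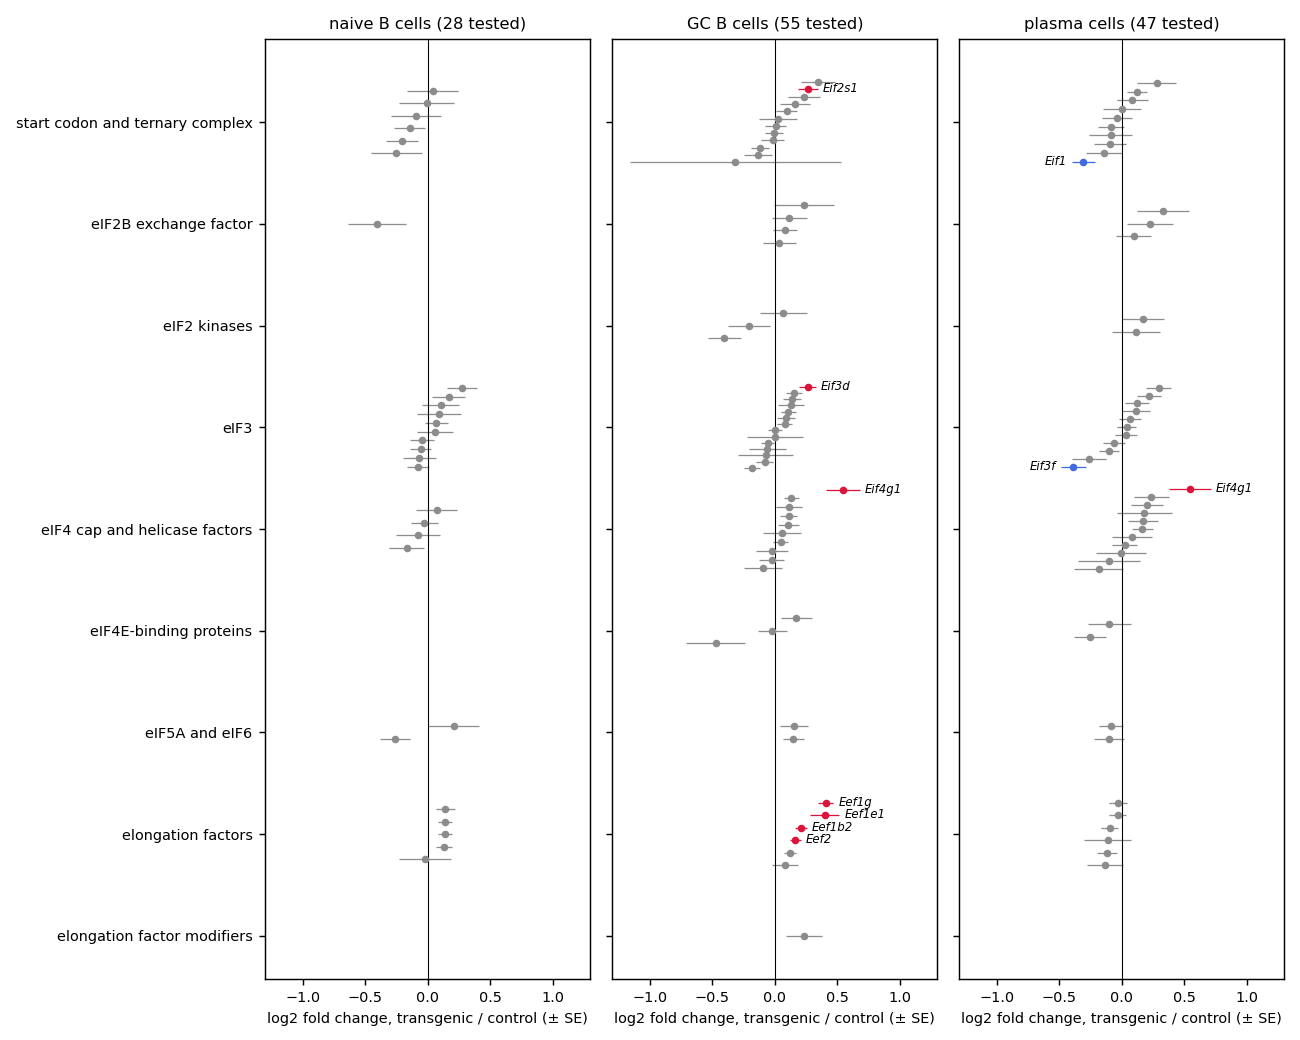
Log2 fold change of transgenic over control mice (x axis, ± SE) for each tested gene by role (rows) in naive B cells (28 genes), GC B cells (55) and plasma cells (47), 8 mice per group. Red genes were called higher and blue genes lower by edgeR. Of the 7 red genes in GC B cells, 4 stand in the elongation factor role, Eef1e1 by its name. These 4 lie at or just below 0 in plasma cells on the TMM scale.

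In plasma cells, 3 of 47 tested genes (6.38%) passed, next to 6.35% of all 4538 genes tested (2.31% higher and 4.03% lower), so the share was that of the background. Eif4g1 was higher, and Eif3f and Eif1 were lower on the TMM scale. Scaling by library totals alone moved the median of all genes from 0.00 to 0.09 and gave 2 higher and 0 lower genes. Eif4g1 ran from 42.4 over 62.5 to 86.6 CPM in controls and from 61.8 over 86.5 to 146 CPM in transgenic mice. The groups overlapped, and 7 of the 8 transgenic mice lay above the control median. The log2 fold change was 0.55 (SE 0.17, edgeR adjusted p = 0.0383), close to its value in GC B cells, and DESeq2 gave an adjusted p of 0.0736. Its share among the 3 eIF4G genes, Eif4g1, Eif4g2 and Eif4g3, was 7.58% ± 1.59 in control and 9.97% ± 1.07 in transgenic GC B cells, and 10.9% ± 2.76 and 13.8% ± 2.39 in plasma cells (n = 8 each).

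Eif3f (chr7:108934417-108942951, plus strand) encodes an eIF3 subunit. In plasma cells it ran from 267 over 338 to 375 CPM in controls and from 180 over 247 to 311 CPM in transgenic mice. The groups overlapped between 267 and 311 CPM. The log2 fold change was -0.39 (SE 0.10, edgeR adjusted p = 0.00877), and -0.31 with library totals alone (adjusted p = 0.0564). Eif1, the start-codon fidelity factor, stood at 320 ± 36.4 against 262 ± 27.8 CPM (log2 -0.31, SE 0.09, edgeR adjusted p = 0.0297). It missed the threshold with library totals alone (0.166), without the filter on low counts (0.158) and in DESeq2 (0.0580). Processed pseudogenes named after Eif1 exist in the annotation, and how reads shared with them were counted is not given in the sources used here.

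**Figure D3:**
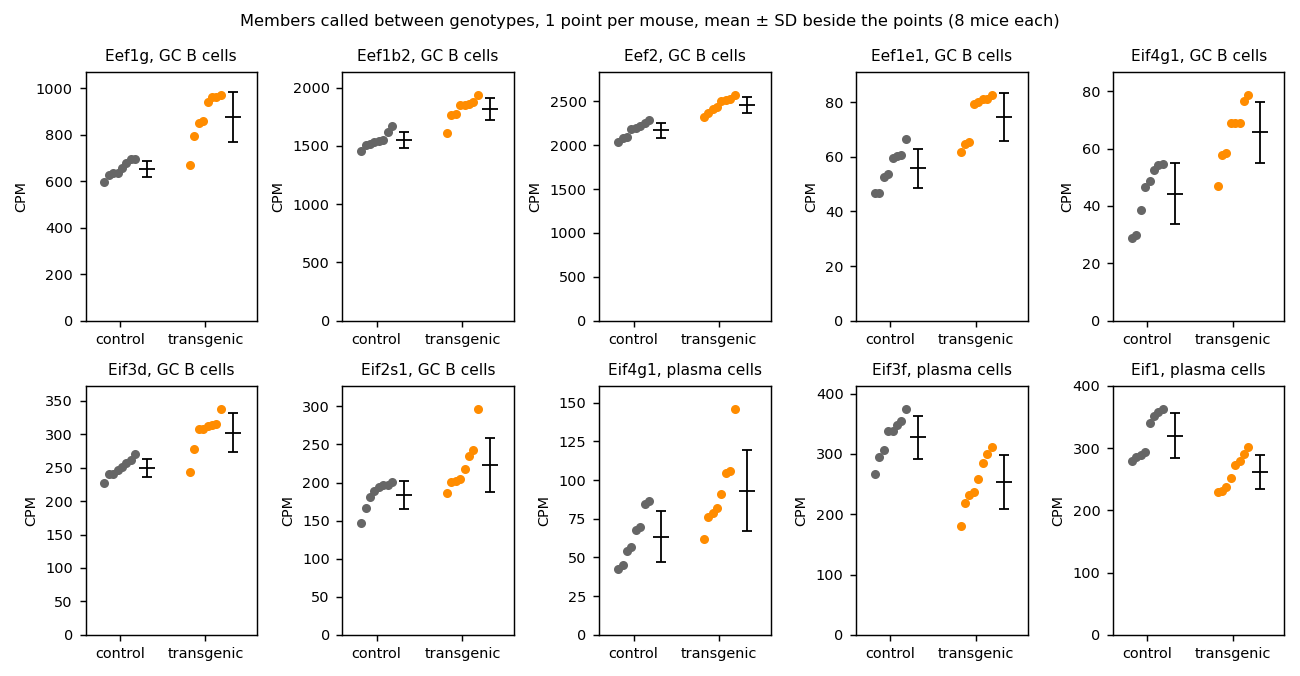
CPM (y axes, TMM scaled) in each mouse for the 7 genes called in GC B cells and the 3 called in plasma cells, with control and transgenic mice side by side; points are mice sorted by level (grey control, orange transgenic), and bars give mean ± SD of 8. Only Eef2 among these 10 panels has groups that do not overlap, from 2040 to 2292 CPM against 2323 to 2576 CPM. The 10 were picked by p in these same libraries, and overlap over all genes was not counted.

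Whether the genotype effect itself differed between populations was tested as an interaction. Eef1g was the 1 gene of 57 called for the plasma cell effect minus the GC B cell effect, where 1.58% of all 7744 genes tested were called. Its effect was 0.41 in GC B cells and -0.12 in plasma cells, a difference of -0.53 (SE 0.10, edgeR adjusted p = 1.55e-04). In plasma cells Eef1g ran from 567 over 699 to 819 CPM in controls and from 548 over 657 to 742 CPM in transgenic mice, and the groups overlapped over most of their ranges. The same difference for Eef2 was -0.26 (adjusted p = 0.0943). An unadjusted p under 0.05 was found for 7 of the 57 genes and for 958 of all 7744 genes tested. For GC B cells minus naive B cells, 0 genes were called, with a background of 0.129%. An unadjusted p under 0.05 was found for 3 of the 57 genes, beside 648 of all 7744 genes tested. For plasma cells minus naive B cells, 0 were called, with a background of 1.16%. Here 5 of the 57 had an unadjusted p under 0.05, beside 749 of all 7744 genes. DESeq2 was not run for the interactions. The effects of Eif4g1 in GC B cells and plasma cells differed by -0.00 (SE 0.18).

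The second set of comparisons set the 3 populations against each other within each genotype. The control and transgenic values come from separate mice, but the 3 contrasts of 1 genotype share their libraries. On the TMM scale, 24 of 52 tested genes were higher and 6 lower in control GC B cells than in control naive B cells, where 51.3% of all genes were called, 26.6% as higher and 24.7% as lower. In transgenic mice 31 of 55 were higher and 6 lower (background 54%, with 27.5% higher and 26.5% lower). The members' median log2 fold change was 0.29 in controls and 0.43 in transgenic mice, beside 0.00 and -0.01 over all genes. In plasma cells against naive B cells, 24 were higher and 11 lower of 52 in controls (background 52.5%, with 27.1% higher and 25.4% lower), and 23 and 9 of 55 in transgenic mice (background 54.9%, with 28% higher and 26.9% lower). In plasma cells against GC B cells, 12 were higher and 21 lower in controls (background 65.8%, with 30.4% higher and 35.4% lower), and 13 and 25 in transgenic mice (background 68.8%, with 31.2% higher and 37.6% lower). Of the 52 genes tested in both genotypes, 28 had the same call in both for GC against naive B cells, 27 for plasma against naive B cells and 30 for plasma against GC B cells, and 0 had opposite calls in any of the 3. As shares these are 53.9%, 51.9% and 57.7%, beside 43.2%, 44.8% and 58.3% of the 6387 genes tested in both genotypes, so the share for plasma against GC B cells was that of all genes.

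Directions that involve plasma cells depend on the scale, because immunoglobulin fills about as many molecules there as all other genes. With library totals alone, the median of all genes moved to -1.37 in controls and -1.23 in transgenic mice against naive B cells, and to -1.54 and -1.43 against GC B cells. On that scale 0 of these genes were higher and 42 lower in control plasma cells than in naive B cells, 0 and 39 in transgenic mice, 1 and 50 against GC B cells in controls and 1 and 53 in transgenic mice. The 1 gene higher than in GC B cells on both scales and in both genotypes was Eif4e3. Changes in plasma cells are therefore given on the TMM scale, relative to the typical non-immunoglobulin gene. With library totals alone, all 24 members called higher than in naive B cells in controls had a negative log2 value, and 20 of 23 in transgenic mice, where Eif2ak3, Eif4e2 and Eif5b stayed positive without passing the test. Against GC B cells 11 of 12 turned negative in controls and 12 of 13 in transgenic mice.

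Eif4e3 (chr6:99625135-99666771, minus strand) encodes a cap-binding protein of the eIF4E family that does not bind the 4E-binding proteins in the usual way. In naive B cells it ran from 0 over 21.1 to 56.5 CPM in controls and from 6.49 over 23.1 to 34.3 CPM in transgenic mice. In GC B cells it ran from 0 over 3.86 to 8.05 CPM in controls and from 0 over 1.94 to 2.94 CPM in transgenic mice, with 18 and 11 UMIs over 8 libraries each. In plasma cells it ran from 25.8 over 39.0 to 51.5 CPM in controls and from 10.2 over 43.6 to 76.6 CPM in transgenic mice. All 16 plasma cell libraries thus lay above all 16 GC B cell libraries. The log2 fold change of plasma over GC B cells was 3.35 in controls (SE 0.32, 10.2-fold, edgeR adjusted p = 2.99e-17) and 4.43 in transgenic mice (SE 0.33, 21.5-fold, adjusted p = 1.09e-22). GC against naive B cells gave -2.55 in controls (SE 0.46, edgeR adjusted p = 1.22e-06) and -3.49 in transgenic mice (SE 0.48, adjusted p = 9.06e-10). Plasma against naive B cells gave 0.80 (adjusted p = 0.0343) and 0.94 (adjusted p = 0.00645), both negative with library totals alone.

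Within the cap-binding family Eif4e, Eif4e2 and Eif4e3, Eif4e3 made up 21.4% ± 12.2 (SD, n = 8) of molecules in control naive B cells, 2.74% ± 2.27 in control GC B cells and 20.3% ± 4.76 in control plasma cells. This share does not depend on the scaling of libraries. In transgenic mice it was 24.0% ± 8.86, 1.38% ± 0.761 and 19.8% ± 8.00. Another protein-coding gene, Gm20696, overlaps the counted end of Eif4e3 on the same strand and had 79 UMIs over all libraries. Eif4e2, the cap-binding paralog known from translational repression, was higher than in naive B cells in both other populations. It stood at 49.2 ± 24.8 CPM in control naive B cells, 91.3 ± 9.83 in GC B cells (log2 0.87, edgeR adjusted p = 7.31e-05) and 124 ± 21.6 in plasma cells (log2 1.32, adjusted p = 3.11e-09), of which the last is -0.07 with library totals alone. In transgenic mice, plasma cells exceeded naive B cells by 1.59 on the TMM scale (adjusted p = 6.36e-13) and by 0.35 with library totals alone (adjusted p = 0.0902).

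The helicase eIF4A is encoded by a pair of near-alike genes, which moved in opposite directions between naive and GC B cells. Eif4a1 was 38.1 ± 15 CPM in control naive B cells and 90.4 ± 8.29 CPM in control GC B cells (log2 1.22, SE 0.20, edgeR adjusted p = 1.04e-07). In transgenic mice it went from 51.7 ± 21.3 to 98.8 ± 16.2 CPM (log2 0.89, SE 0.18, adjusted p = 1.60e-05). Eif4a2 was 58.4 ± 14.3 and 39.0 ± 8.55 CPM in controls (log2 -0.60, SE 0.22, edgeR adjusted p = 0.0158) and 61.9 ± 20.7 and 36.3 ± 6.30 CPM in transgenic mice (log2 -0.79, SE 0.20, adjusted p = 5.53e-04). Without the filter on low counts the control value of Eif4a2 missed the threshold (adjusted p = 0.202). Eif4a1 made up 38.7% ± 9.67 of the pair's molecules in control naive B cells, 69.9% ± 6.14 in GC B cells and 57.6% ± 9.72 in plasma cells. The transgenic mice gave 44.5% ± 16.4, 72.9% ± 4.86 and 62.4% ± 3.67. The counted end of Eif4a2 overlaps Rfc4 on the opposite strand, and whether strand was used in counting is not given in the sources used here.

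Eif4h, which stimulates the helicase, was also higher in GC B cells, at 374 ± 17.7 CPM against 197 ± 34.9 CPM in control naive B cells (log2 0.91, SE 0.10, edgeR adjusted p = 1.55e-13). All 8 GC B cell libraries lay above all 8 naive ones. In plasma cells it stood at 227 ± 33.9 CPM, lower than in GC B cells in both genotypes (log2 -0.70 and -0.75). Eif4g3, an eIF4G paralog, was lower in GC than in naive B cells (log2 -0.68 and -0.55, edgeR adjusted p = 0.00227 and 0.0111), and missed the threshold without the filter on low counts (adjusted p = 0.0626 and 0.216). Eif4b, the partner of eIF4A in unwinding, was lower in plasma than in GC B cells (log2 -0.71 and -0.61), as was Eif4a1 (log2 -0.53 and -0.59). Eif4g1 was higher in plasma cells than in naive B cells (log2 0.65 and 0.96, edgeR adjusted p = 0.0272 and 5.01e-05) and GC B cells (log2 0.50 and 0.48, adjusted p = 0.0106 and 0.00170).

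Among the eIF4E-binding proteins, Eif4ebp1 (chr8:27260329-27276674, plus strand), which encodes 4E-BP1, a target of mTORC1, was highest in plasma cells. It ran from 50.3 over 56.8 to 84.6 CPM in control naive B cells, from 55.3 over 69.2 to 95.0 CPM in control GC B cells and from 95.8 over 149 to 182 CPM in control plasma cells. The plasma cell range began just above that of GC B cells. Transgenic plasma cells ran from 98.9 over 124 to 167 CPM, above transgenic GC B cells at 57.6 to 83.3 CPM. The log2 fold change over naive B cells was 1.25 in controls (SE 0.17, edgeR adjusted p = 5.06e-10) and 1.18 in transgenic mice (SE 0.18, adjusted p = 1.93e-08). Over GC B cells it was 1.08 (adjusted p = 7.46e-14) and 0.82 (adjusted p = 6.40e-09). Its share of the pair Eif4ebp1 and Eif4ebp2 was 80.8% ± 12.4 in naive B cells, 80.8% ± 4.89 in GC B cells and 92.5% ± 3.15 in plasma cells of controls. Eif4enif1, the 4E-transporter gene, was higher in plasma than in naive B cells (log2 0.76 and 0.58, edgeR adjusted p = 0.00300 and 0.0164), and its counted end overlaps Drg1 on the opposite strand.

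**Figure D4:**
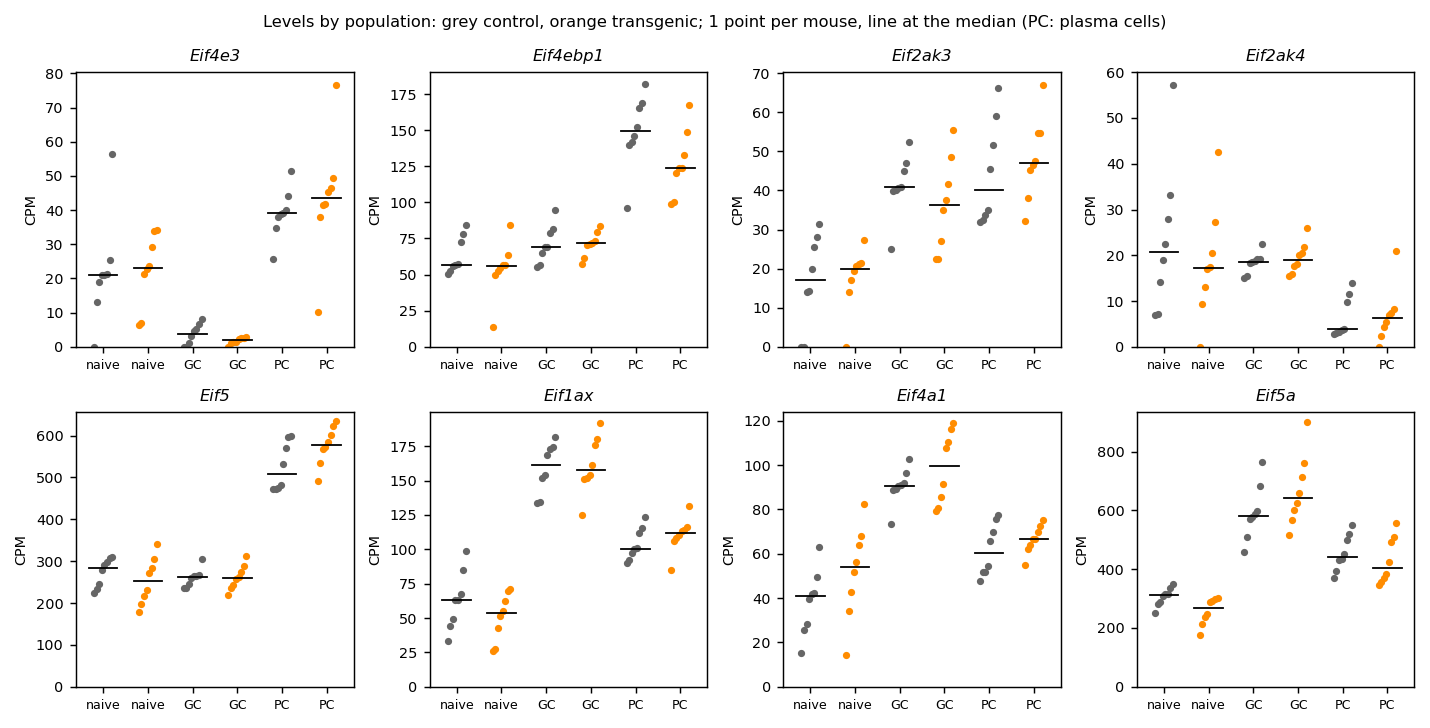
CPM (y axes, TMM scaled) of Eif4e3, Eif4ebp1, Eif2ak3, Eif2ak4, Eif5, Eif1ax, Eif4a1 and Eif5a in each of 8 mice per group of population and genotype (x axis), sorted by level, in grey for control and orange for transgenic mice with a line at the median. Eif4e3 falls to medians of 3.86 and 1.94 CPM in GC B cells, while Eif5 has medians of 508 and 579 CPM in plasma cells against 252 to 284 CPM elsewhere; the plasma cell rise of Eif5 turns negative with library totals alone.

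Genes of the start-codon and ternary complex group differed by population in different ways. Eif5 ran from 225 over 284 to 310 CPM in control naive B cells, from 237 over 261 to 305 CPM in GC B cells and from 473 over 508 to 599 CPM in plasma cells. Naive and GC B cells overlapped, and all plasma cell libraries lay above both. Transgenic mice gave the same order, with plasma cells from 492 over 579 to 634 CPM. The log2 fold change of plasma over GC B cells was 1.03 (SE 0.08, edgeR adjusted p = 8.53e-24) in controls and 1.13 (SE 0.08, adjusted p = 4.41e-23) in transgenic mice. With library totals alone these were -0.43 and -0.21. Eif5b, which joins the ribosomal subunits, was likewise higher in plasma than in GC B cells (log2 0.72 and 0.79, edgeR adjusted p = 1.64e-07 and 6.73e-10). Eif2s2, the beta subunit of eIF2, was higher in plasma than in naive B cells (log2 1.12 and 0.95, edgeR adjusted p = 2.08e-10 and 9.26e-09), as was Eif2d, an initiation factor outside the eIF2 complex (log2 1.12 and 1.15, adjusted p = 4.60e-05 and 5.22e-06). Eif1 was higher in plasma than in GC B cells (log2 0.41 and 0.20, edgeR adjusted p = 9.16e-06 and 0.0363), while its paralog Eif1b was lower (log2 -0.64 and -0.74, adjusted p = 2.88e-05 and 4.83e-07).

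Eif1ax, an X-linked copy of eIF1A, was instead highest in GC B cells. It stood at 63.0 ± 21.3 CPM in control naive B cells, 159 ± 18.3 CPM in GC B cells and 104 ± 11.9 CPM in plasma cells. The GC and naive ranges did not overlap in either genotype, and the log2 fold change was 1.34 in controls (SE 0.16, edgeR adjusted p = 1.83e-12) and 1.63 in transgenic mice (SE 0.16, adjusted p = 3.21e-15). Its near-identical autosomal copy Eif1a stood at 50.6, 51.1 and 73.3 CPM in the 3 control populations, so the share of Eif1ax in the pair went from 55.9% ± 16.6 to 75.6% ± 3.50 and 58.6% ± 4.76. Reads that fit both copies make this split uncertain. Eif2s1 was also highest in GC B cells, at 184 ± 18.6 CPM against 93.4 ± 31.9 CPM in control naive B cells (log2 0.96, edgeR adjusted p = 4.29e-09) and 119 ± 15.1 CPM in plasma cells (log2 -0.61 against GC B cells, adjusted p = 7.51e-07). Eif2a, which encodes an alternative initiator-tRNA factor, rose from naive to GC B cells as well (log2 1.23 and 0.81, edgeR adjusted p = 0.00120 and 0.00975) and was lower again in plasma than in GC B cells (log2 -0.63 and -0.88).

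The eIF2 kinases, which respond to different stresses, showed separate patterns. Eif2ak3 (chr6:70844515-70905245, plus strand) encodes PERK, the kinase that senses unfolded protein in the endoplasmic reticulum. It ran from 0 over 17.0 to 31.5 CPM in control naive B cells, from 25 over 40.8 to 52.4 CPM in GC B cells and from 31.9 over 40.2 to 66.1 CPM in plasma cells. GC B cells and plasma cells overlapped over most of their ranges, and plasma cells lay above all naive libraries. Against naive B cells the log2 fold change in GC B cells was 1.23 (SE 0.32, edgeR adjusted p = 5.27e-04) in controls and 1.03 (SE 0.31, adjusted p = 0.00358) in transgenic mice. In plasma cells it was 1.36 (SE 0.33, edgeR adjusted p = 2.54e-04) and 1.45 (SE 0.32, adjusted p = 4.59e-05), and with library totals alone -0.02 and 0.22.

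Eif2ak4, which encodes GCN2, the kinase that senses uncharged tRNA, was lowest in plasma cells. Control plasma cells ran from 2.80 over 3.83 to 13.9 CPM with 16 UMIs in all, against 15.1 over 18.6 to 22.5 CPM in GC B cells and 7.06 over 20.7 to 57.2 CPM in naive B cells. The plasma and GC ranges did not overlap in controls, but did in transgenic mice. The log2 fold change of plasma over GC B cells was -1.44 (SE 0.36, edgeR adjusted p = 2.13e-04) in controls and -1.51 (SE 0.34, adjusted p = 4.51e-05) in transgenic mice. Among the 4 kinase genes, Eif2ak3 made up 14.7% ± 10.9 (SD, n = 8) of molecules in control naive B cells, 33.7% ± 5.53 in GC B cells and 36.1% ± 9.60 in plasma cells. Eif2ak4 made up 21.9% ± 10.2, 15.1% ± 1.96 and 5.23% ± 3.46. The control naive shares rest on 120 UMIs of the 4 kinase genes over 8 libraries. Of eIF2B, the exchange factor that these kinases act against, 1 gene was higher and 1 lower in plasma than in GC B cells in each genotype. The higher gene was Eif2b4 (log2 0.93 and 0.89, edgeR adjusted p = 1.94e-08 and 1.96e-08), also higher than in naive B cells (log2 0.91 and 1.03), and the lower was Eif2b2 (log2 -0.75 and -0.63, adjusted p = 3.41e-06 and 1.90e-05).

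Genes of eIF3, the scaffold on the small ribosomal subunit, were mostly higher in GC than in naive B cells. Of 12 tested in controls 10 rose and 1 fell, and of 13 tested in transgenic mice 9 rose and 1 fell, where 26.6% and 27.5% of all genes were higher. Eif3l rose by 0.96 and 0.93 on the log2 scale (edgeR adjusted p = 2.17e-10 and 4.80e-10), Eif3b by 0.87 and 1.16, and Eif3c by 0.61 in both genotypes. The exception was Eif3f, at log2 -0.20 (adjusted p = 0.0304) and -0.33 (adjusted p = 0.00138), which lost the call without the filter on low counts (adjusted p of 1 and 0.370).

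In plasma cells, on the TMM scale, 2 eIF3 genes were higher and 7 lower than in GC B cells of 12 tested in controls, and 2 higher and 6 lower of 13 in transgenic mice. Calls were about as frequent over all genes, at 65.8% and 68.8%. Eif3g and Eif3a (log2 0.28 and 0.24) were the 2 higher genes, both negative with library totals alone. Eif3g ran from 250 over 273 to 307 CPM in control GC B cells and from 349 over 384 to 534 CPM in control plasma cells, without overlap (log2 0.60, SE 0.08, edgeR adjusted p = 1.86e-10). Eif3h, among the most abundant initiation factor genes, went the other way, from 654 over 733 to 769 CPM in GC B cells to 387 over 447 to 518 CPM in plasma cells (log2 -0.69, SE 0.07, edgeR adjusted p = 7.05e-16). These groups did not overlap either, and the transgenic mice gave -0.72 (adjusted p = 3.71e-14). Among eIF3 genes called in both genotypes, Eif3e, Eif3h and Eif3l fell furthest from GC B cells to plasma cells (log2 -0.71, -0.69 and -0.53 in controls). Against naive B cells, plasma cells had Eif3b (log2 1.11 and 0.99), Eif3g (0.87 and 0.92) and Eif3a (0.76 and 0.73) higher and Eif3h lower (-0.28 and -0.34). Eif3h missed the threshold without the filter on low counts (edgeR adjusted p = 0.0639 and 0.088). Eif3f fell further in plasma cells, by 0.64 in controls and 1.003 in transgenic mice against naive B cells on the log2 scale (edgeR adjusted p = 2.92e-10 and 1.81e-15).

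Of the genes tied to eIF5A, a factor that helps the ribosome past difficult peptide bonds and carries the amino acid hypusine, Eif5a was highest in GC B cells. It ran from 252 over 311 to 351 CPM in control naive B cells, from 458 over 582 to 765 CPM in GC B cells and from 371 over 442 to 551 CPM in plasma cells. The naive range lay below both others, and those 2 overlapped. GC B cells exceeded naive B cells by 0.95 on the log2 scale (SE 0.09, edgeR adjusted p = 3.18e-16) in controls and by 1.34 (SE 0.13, adjusted p = 1.22e-11) in transgenic mice. Plasma cells exceeded naive B cells by 0.58 and 0.71 on the TMM scale and had less than GC B cells (log2 -0.37 and -0.64). Eif5a made up 98.3% ± 1.01 of the molecules of the pair Eif5a and Eif5a2 in control GC B cells. Its paralog Eif5a2 was too low to be tested, with 55 and 84 UMIs in control and transgenic GC B cells against 1 and 2 in naive B cells and 1 and 4 in plasma cells. Eif6, which keeps the large ribosomal subunit from joining too early, was higher in GC than in naive B cells (log2 0.79 and 0.71, edgeR adjusted p = 3.22e-06 and 1.38e-05).

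On the TMM scale, the elongation factors were the role with the most lower calls in plasma cells against naive B cells. Of 6 tested, 4 were lower in each genotype, beside 25.4% of all genes in controls and 26.9% in transgenic mice. Eef1a1 was lower by 0.34 and 0.57 on the log2 scale (edgeR adjusted p = 2.57e-06 and 1.27e-12), with Eef2 at log2 -0.24 and -0.52 and Eef1b2 at -0.24 and -0.45. The control values of Eef2 and Eef1b2 missed the threshold without the filter on low counts (edgeR adjusted p = 0.0675 and 0.0852). Control plasma cells held Eef1a1 at 1286 to 1594 CPM and naive B cells at 1629 to 2251 CPM, without overlap. Before scaling, Eef1a1 had 273 UMIs per library in control naive B cells and 454 in control plasma cells, whose library totals were larger. The lower values are thus relative to other genes. Between GC and naive B cells, Eef1a1 was at log2 -0.17 and -0.22 (edgeR adjusted p = 0.0169 and 0.00270), calls it lost with library totals alone or without the filter on low counts. Against GC B cells, 3 of 6 were lower in plasma cells in controls and 5 of 6 in transgenic mice. Over all genes, 35.4% and 37.6% were lower there. Eef1g had log2 fold changes of 0.12, not called, in controls and -0.44 in transgenic mice. That pair of values is the Eef1g interaction given above, seen from the other side of the design, and is no separate evidence.

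The gamma subunit of eIF2 is encoded by Eif2s3x on the X chromosome and Eif2s3y on the Y chromosome (chrY:1010543-1028847, plus strand). Eif2s3y had at least 3 UMIs in all 3 libraries of 9 mice, 5 controls and 4 transgenic. In these 9 mice it stood at 47.4 ± 17.4 CPM in naive B cells, 33.7 ± 6.85 CPM in GC B cells and 40.0 ± 8.87 CPM in plasma cells. The other 7 mice, 3 controls and 4 transgenic, had 5 UMIs in all, in 4 of 21 libraries and at most 2 in 1 library, all 4 from transgenic plasma cells. The Y-linked gene Ddx3y split the mice the same way, with 24 to 49 UMIs over the 3 libraries of each of the 9 mice and at most 2 in each of the others. Eif2s3x stood at 8.97, 9.05 and 11 CPM in naive, GC and plasma cells of the 9 mice and at 15.3, 11.9 and 12.2 CPM in the other 7, and was too low to be tested. With Y-linked expression as a covariate, every member called for genotype in GC B cells and plasma cells kept its call.

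**Figure D5:**
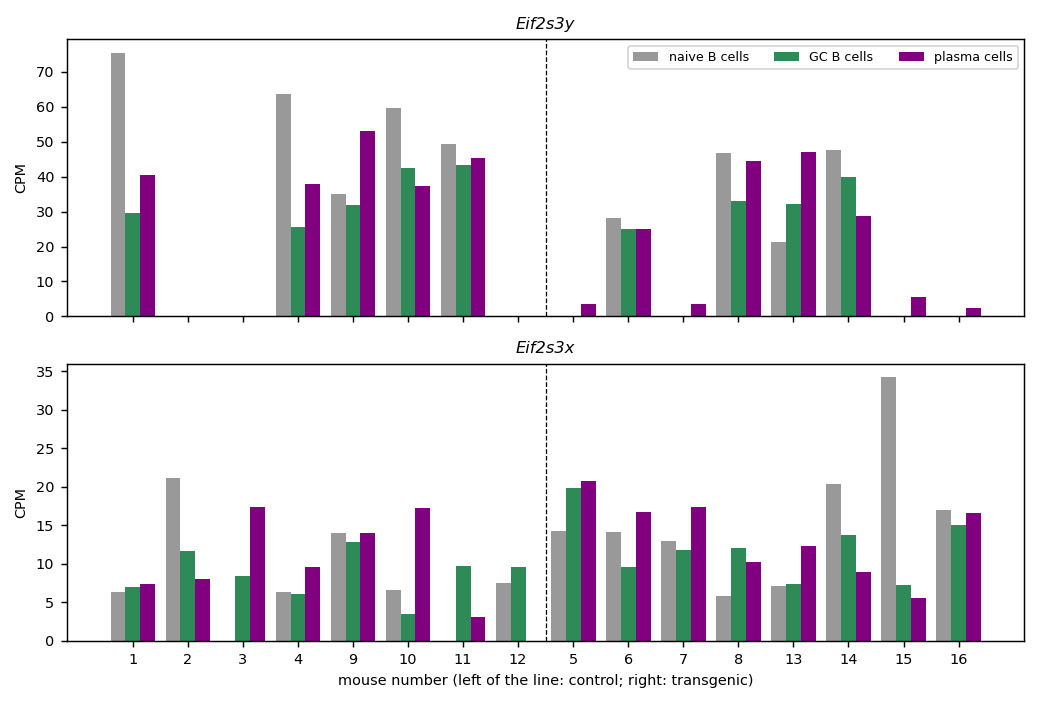
CPM (y axis) of Eif2s3y and Eif2s3x in the naive B cell, GC B cell and plasma cell library of each of the 16 mice (x axis, by genotype), drawn as bars from 0. The 9 mice with Eif2s3y have it in all 3 libraries, at 21.3 to 75.5 CPM in naive B cells and 25 to 43.5 CPM in GC B cells.

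Of the 65 genes, 57 passed the filter on low counts in at least 1 comparison and 8 in none. Those 8 were Eif2b3, Eef1a2, Eif2s3x, Eef2k, Eif5a2, Eef1akmt1, Eif2ak2 and Eef1akmt3, and they are described by counts with no test. Eef1a2, the paralog of eEF1A known from muscle and neurons, had 5 UMIs over all 48 libraries. Eef1akmt3, a lysine methyltransferase of eEF1A, had 48 UMIs in control and 77 in transgenic plasma cells, against 0 and 2 in GC B cells and 0 in all naive B cell libraries. Every plasma cell library lay above every other one, at 7.98 to 38.8 CPM in controls and 13.9 to 39.0 CPM in transgenic mice, against at most 1.44 CPM in GC B cells. Eef2k, the kinase that blocks eEF2, stood at 16.1 and 12.3 CPM in control and transgenic plasma cells and had 2 and 5 UMIs in GC B cells.

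Other genes of translation were read from lists for the same comparisons. In transgenic GC B cells, where 3.58% of all genes were higher and 4.1% lower, 2 of 7 tested genes of termination and recycling were higher, Etf1, the release factor eRF1 (log2 0.32, edgeR adjusted p = 0.00239), and Abce1, the recycling factor (log2 0.38, adjusted p = 0.0133). The helicase gene Ddx3x was the 1 higher gene of 7 other initiation helpers (log2 0.59, edgeR adjusted p = 0.00546). Srm, the spermidine synthase that feeds hypusine synthesis, was the 1 of 5 in that list (log2 0.72, edgeR adjusted p = 0.00252). Of 21 genes listed under cytosolic aminoacyl-tRNA synthetases 2 were higher, Aimp2 and Farsa. Of 73 cytosolic ribosomal protein genes 5 were higher and 1 lower with a median log2 fold change of 0.08. The mTORC1 arm (7 tested), the poly(A)-binding proteins (3) and the integrated stress response (7) had 0 calls in edgeR. In plasma cells, Etf1 (log2 0.38, edgeR adjusted p = 0.0177) and Ddx3x (log2 0.80, adjusted p = 0.00516) were higher in transgenic mice too, while 12 of 69 ribosomal protein genes were lower and 0 higher on the TMM scale (median -0.17), beside 4.03% and 2.31% of all genes, and 1 was lower with library totals alone. Atf5 (log2 -0.69) and Vars (log2 -0.40) were lower there.

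Between populations these lists moved further. In control plasma cells against naive B cells, 8 of 9 tested genes of the integrated stress response, the program downstream of eIF2 alpha phosphorylation, were higher on the TMM scale, as were 16 of 21 synthetase genes with 1 lower. Over all genes 27.1% were higher and 25.4% lower. With library totals alone, 3 stress response genes were higher and 1 lower, and 2 synthetase genes were higher and 12 lower. Ribosomal protein genes went the other way, with 4 higher and 55 lower of 73 and a median log2 fold change of -0.50. In control GC B cells, where 26.6% of all genes were higher and 24.7% lower, 2 ribosomal protein genes were higher and 45 lower than in naive B cells, with a median of -0.32, while 6 of 9 stress response genes were higher and 2 lower and 4 of 7 release and recycling genes were higher. The eIF3 genes, with 10 of 12 higher, and the ribosomal protein genes thus differed in direction in the same libraries.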

How the data were processed

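The authors' deposited table holds raw UMI counts per gene for 48 libraries, with STAR and the build GRCm38.p5 named in the submitters' processing notes. Identifiers were matched to GENCODE M21 symbols, and 306 of 20007 genes without one (0.424% of UMIs) were left out of the tests. The members, roles and other gene lists were chosen with earlier results of these data known. Genotypes were compared within each population and populations within each genotype with edgeR 4.0.16 (R 4.3.3: TMM, filterByExpr, robust quasi-likelihood test) and Benjamini-Hochberg adjustment over all genes tested, with a threshold of 0.05. DESeq2 1.42.0 served as an alternative, beside other scalings, filters, thinning, covariates and a mouse block. Values after ± are SDs over mice, save in the plot of genotype effects. Each SE was derived from edgeR's F statistic, as the absolute log2 fold change over the square root of F. Named in full were members called for genotype or an interaction and, per population contrast and role, up to 3 per direction with the largest change called in both genotypes at a mean of 10 CPM or more, plus the 5 highest genes and the paralog pairs.

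The labels give the same animal for 3 libraries, so mouse numbers pair them. Deviations of same-mouse libraries from their group means correlated between -0.0115 and 0.0901 over 48 pairs, 44 of them positive. Counting intervals were not drawn, since the spread over 8 mice holds the counting error. The sources used here do not give how UMIs were collapsed, the annotation release or the use of strand. The second allele of both genotypes is not reported here.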

Additional observations from a re-analysis of the deposited data

Results flagged for a closer look

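In 14 of 230 groups of 8 mice tested gene by gene, the highest or lowest mouse lay far from the next, a rate near the 1 in 20 that chance gives. Values are CPM on the scale of all 48 libraries, each with the nearest other mouse of its group. In control naive B cells, Eif2a was 0 in mouse 4 (next 13.2), Eif3e 57.2 in mouse 4 (next 37.8) and Eif4e3 56.5 in mouse 11 (next 25.4). In transgenic naive B cells, Eif1 was 263 in mouse 13 (next 208) and Eif2b2 121 in mouse 5 (next 74.8). In control GC B cells, Eif2ak3 was 25 in mouse 12 (next 39.9), Eif2b4 30.1 in mouse 3 (next 45.9) and Eif5 305 in mouse 9 (next 267). In transgenic GC B cells, Eif3c was 253 in mouse 7 (next 291) and Eif3f 479 in mouse 13 (next 416). In control plasma cells, Eif2s2 was 149 in mouse 10 (next 187). In transgenic plasma cells, Eef1e1 was 75.1 in mouse 8 (next 50.2), Eif3d 397 in mouse 7 (next 304) and Eif4h 198 in mouse 6 (next 228). No mouse was left out of any fit.

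The genotype effect on Eef1g differed between plasma cells and GC B cells by -0.53 on the log2 scale in a test of the difference itself (SE 0.10, edgeR adjusted p = 1.55e-04).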

How the results depend on the processing

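Each count of called genes stayed within 1.5 times its main value under each alternative run, except for DESeq2 in plasma cells by genotype, with 1 call in place of 3, and library totals alone in control plasma against GC B cells, with 51 calls in place of 33. Libraries thinned to equal depth left 5 of the 7 calls in GC B cells, all 48 libraries in 1 fit left 5, and DESeq2 gave 6. The replicate block, with the mouse number as a block, changed no call of a named gene; it gave 31 in place of 30 calls for control GC against naive B cells, 34 in place of 35 for control plasma against naive B cells, 36 in place of 37 for transgenic GC against naive B cells, and the same counts elsewhere (33, 32 and 38, and 0, 0 and 1 for the interactions).

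Signs turned under library totals alone for genes called higher in plasma cells, a scale on which immunoglobulin enters the total. For plasma against naive B cells, the log2 values in control and transgenic mice were -0.26 and -0.088 for Eif2d, -0.27 and -0.29 for Eif2s2, -0.45 and -0.089 for Eif5, -0.47 and -0.20 for Eif2b4, -0.27 and -0.24 for Eif3b, -0.52 and -0.32 for Eif3g, -0.64 and -0.51 for Eif3a, -0.58 and -0.29 for Eif4e3, -0.74 and -0.28 for Eif4g1, -0.14 and -0.055 for Eif4ebp1, -0.63 and -0.65 for Eif4enif1, and -0.82 and -0.53 for Eif5a. In control mice alone, Eif2ak3 was -0.0215 and Eif4e2 -0.0655. For plasma against GC B cells they were -0.43 and -0.21 for Eif5, -0.73 and -0.54 for Eif5b, -1.05 and -1.14 for Eif1, -0.52 and -0.44 for Eif2b4, -0.87 and -0.65 for Eif3g, -1.18 and -1.09 for Eif3a, -0.95 and -0.85 for Eif4g1, -0.998 and -0.67 for Eif4e2, and -0.37 and -0.51 for Eif4ebp1. Without the filter on low counts, Eef1a1 in control GC against naive B cells was 0.016; the cause was not tested. In that setting some calls in plasma against GC B cells also missed the threshold in edgeR. They were Eif3a (adjusted p = 0.133 in controls and 0.127 in transgenic mice), Eif1 in transgenic mice (0.295) and Eif4g1 in controls (0.0592).

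Depth was lowest in naive B cells, where 28 of 65 genes could be tested for genotype, against 55 in GC B cells. Genes under about 10 CPM, such as Eif2ak4 in plasma cells, rest on 1 or 2 UMIs in many libraries.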
